A study of Homo sapiens with 6 samples.

Results

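The genes described here carry cargo between the endoplasmic reticulum (ER) and the Golgi apparatus. They were chosen by name: 58 names cover the COPII and COPI coats, the cargo receptors around LMAN1 and MCFD2, the p24 and KDEL receptor families, the ARF GTPases with their regulators, and the early SNAREs with the tether USO1. SEC12 is another name of PREB, so the list holds 57 genes, of which 56 had a row by NCBI gene ID among the 19589 rows of the authors' deposited table. Of these, 55 had an adjusted p. SEC24B had none, at a mean of 1.24 normalized counts, and TMED3 had only rows by transcript accession, with 12 and 14 reads. MIA3 and SEC24B had such a row beside their own, with 51 and 2 reads, which was not added to it. The libraries are labelled HepG2, a line from a human liver tumour, and their cells had received either an siRNA (small interfering RNA) directed at the long non-coding RNA HOTAIR, called siHOTAIR, or a negative control siRNA, called siNC. The sources used here give neither the time between transfection and harvest nor the siRNA sequences. The labels give 3 libraries of each group, sequenced from total RNA without ribosomal RNA.

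Newly made secretory and membrane proteins leave the ER in vesicles coated with COPII. The small GTPase SAR1, loaded by PREB, recruits the inner coat of SEC23 and SEC24 and then the outer coat of SEC13 and SEC31, while receptors such as LMAN1 and SURF4 hold soluble cargo in the bud. LMAN1 is a mannose-binding lectin that works with the calcium-binding protein MCFD2, and loss of either causes the combined deficiency of coagulation factors V and VIII. Vesicles coated with COPI, also called coatomer and recruited by ARF GTPases, return receptors and escaped ER proteins from the Golgi.

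The authors' deposited table holds no value per library, but its means are sums of whole reads divided by size factors, and the reads of each library were recovered from them. They came from 3 siHOTAIR and 2 siNC libraries, named a, b and c and a and b here, so 1 labelled siNC library is not among them. Recovered reads numbered 7238187, 5842624 and 5540982 in siHOTAIR libraries and 7213297 and 5514095 in siNC libraries. HOTAIR itself had 72, 73 and 53 reads in siHOTAIR libraries, against 241 and 134 in siNC libraries, and its log2 fold change in the authors' deposited table was -1.37 (SE 0.197, adjusted p = 5.6e-11). The markers of the labelled line were near 0: of 12 hepatocyte markers 7 had a row, and these summed to 28.6 to 37.2 normalized counts in siHOTAIR libraries and 19.0 to 20.1 in siNC libraries, with APOA1, SERPINA1, TF, FGB and AHSG at no more than 2 reads in any library. Of 6 markers of squamous and other epithelia 4 had a row: the keratins KRT17 and KRT7 had means of 2605 and 11514 normalized counts in the authors' deposited table, and KRT14 and TP63 means of 0.173 and 1.33. Without KRT7, which was not recovered, they summed to 2238 to 2446 in siHOTAIR libraries, against 2713 to 3191 in siNC libraries. Of 6 fibroblast markers 4 had a row, and these summed to 2122 to 2521 normalized counts in siHOTAIR libraries, against 1239 to 1259 in siNC libraries. COL1A1 made up most of that sum, with means of 1943 in siHOTAIR libraries and 1064 in siNC libraries, PDGFRB rose too, and ACTA2, which did not pass, averaged 28.7 in siHOTAIR libraries and 40.7 in siNC libraries. Of 4 endothelial markers 3 had a row and summed to 87.8 to 118 in siHOTAIR libraries, against 72.0 to 73.9 in siNC libraries, and 3 of 4 leukocyte markers summed to 127 to 154 in siHOTAIR libraries, against 184 to 204 in siNC libraries. CDH5 made up most of the endothelial sum and CD68 most of the leukocyte sum, while LYZ averaged 7.11 in siHOTAIR libraries and 2.52 in siNC libraries. The part of these marker differences in the results was not tested, and in bulk RNA fewer cells of a type and less RNA per cell cannot be told apart. Separate cultures are not mentioned for the libraries of a group, so the spread that the p-values rest on may be technical.

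A gene is said here to have risen or fallen when its adjusted p in the authors' deposited table, from their DESeq2 comparison over 14597 features, was under 0.05. By that rule 23 of the 55 transport genes changed, 6 that rose and 17 that fell. The share of all tested features called was 40.4%, with 20% that rose and 20.4% that fell. The 41.8% for the transport genes lies near that share, and their larger count stands on the falling side. Among tested features with a mean of at least 200 normalized counts, a level that most transport genes reach, 55.6% were called. The share for the transport genes lies below that one. Of those 7277 features, 2188 rose and 1859 fell. With both groups scaled to equal total counts the split became 4 that rose and 26 that fell, but that scaling moved all features alike, with 14.7% of them called as higher and 26.1% as lower. The median log2 fold change was -0.11 over the transport genes and 0.01 over all tested features. In the recovered reads, 25 of the 55 genes had every siHOTAIR library below both siNC libraries, where 32.0% of all features did, and 11 had every siHOTAIR library above both, where 30.8% did. Limma, an alternative test run on the recovered reads, called 28 of the 55 genes with Benjamini-Hochberg adjustment, against 46.7% of all features. These included all 23 of the authors' calls, and the other 5 lay below 0: SEC31A, SEC24A, MIA2, TMED5 and COPZ2.

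**Figure D1:**
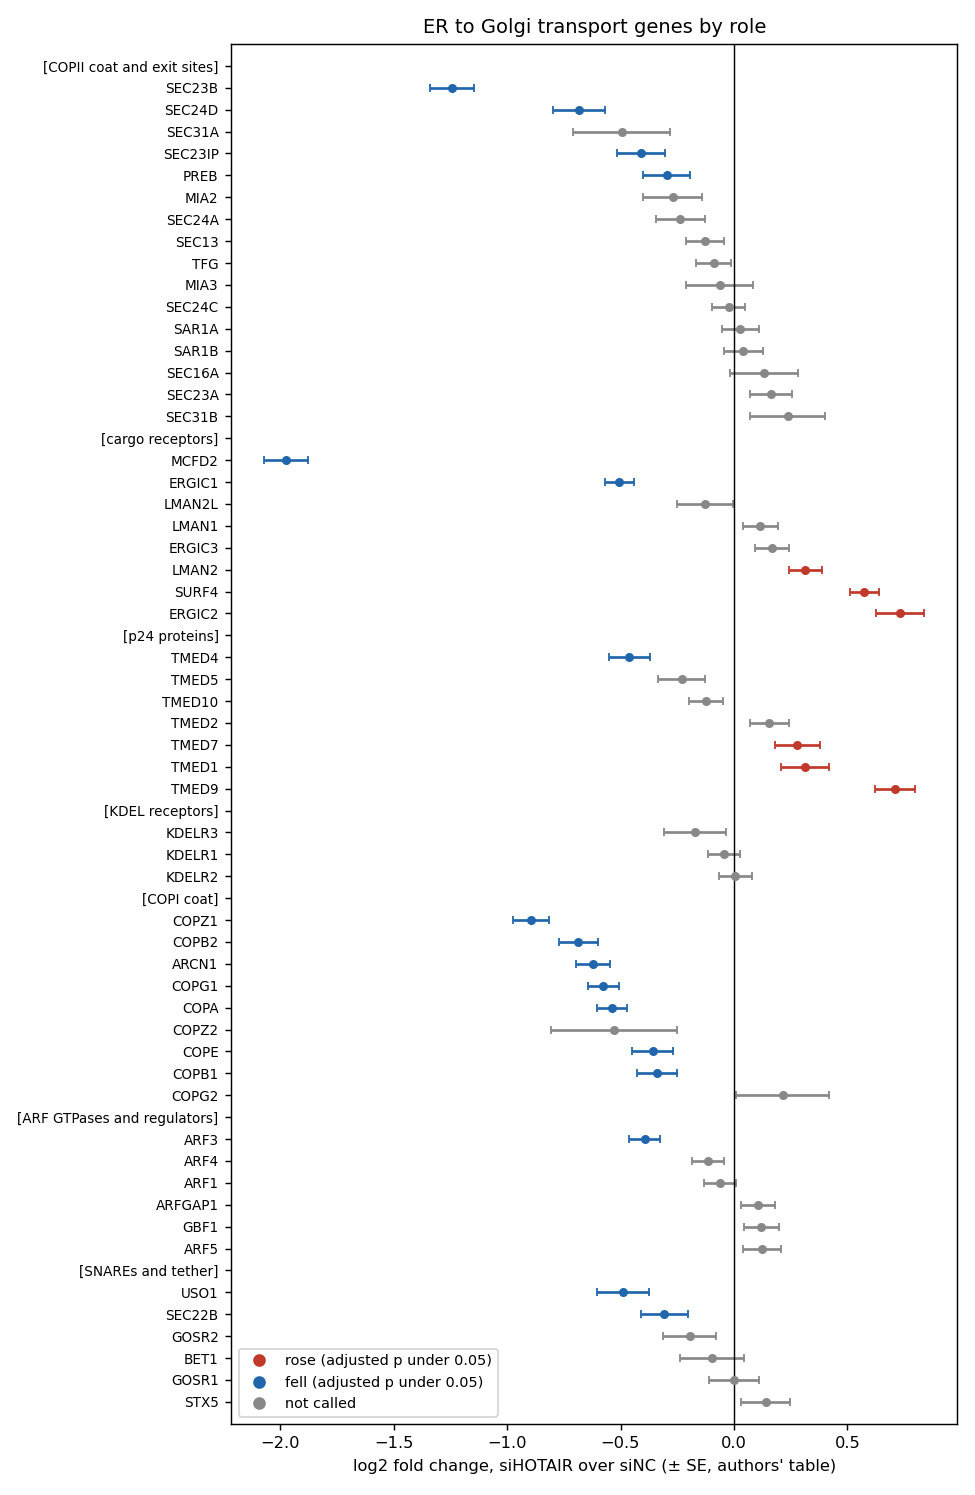
Log2 fold change, siHOTAIR over siNC, of each of the 55 tested transport genes with its standard error from the authors' deposited table, grouped by role; colours give the call at an adjusted p of 0.05. MCFD2 lies lowest at -1.97 and ERGIC2 highest at 0.73. Of 9 COPI subunits 7 fell, where 20.4% of all tested features did.

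Among the cargo receptors, MCFD2 had the lowest fold change of all 55 genes. MCFD2 was measured at 302, 299 and 268 normalized counts in siHOTAIR libraries, against 1175 and 1125 in siNC libraries. The groups lay far apart beside their spread, with means of 290 ± 18.8 (SD, n = 3) in siHOTAIR libraries and 1150 ± 35.8 (SD, n = 2) in siNC libraries. MCFD2 fell to 25.5% of its siNC level in the authors' deposited table, a log2 fold change of -1.97 (SE 0.0962 and adjusted p = 2.21e-90), which ranked 34 from the lowest among the 14597 tested features. Its reads numbered 349, 279 and 238 in siHOTAIR libraries and 1404 and 1004 in siNC libraries. MCFD2 was on the authors' own list of differential genes. RefSeq names 1 pseudogene after MCFD2, and 3.2% of its exon bases overlap exons of TTC7A on the other strand, which had a log2 fold change of 0.17 (adjusted p = 0.172) in the authors' deposited table.

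LMAN1, the lectin that MCFD2 binds, did not pass the test. It had 1151, 1146 and 1081 normalized counts in siHOTAIR libraries, against 1067 and 1007 in siNC libraries. Every siHOTAIR library lay above both siNC libraries, by a margin small beside that of MCFD2, and the authors' deposited table gives a log2 fold change of 0.12 (SE 0.0781 and adjusted p = 0.237). There were 0.263, 0.261 and 0.248 reads of MCFD2 per read of LMAN1 in siHOTAIR libraries, against 1.10 and 1.12 in siNC libraries. This ratio is taken within a library and does not depend on the size factors. Per kilobase of exon, siHOTAIR libraries averaged 60.2 normalized counts for MCFD2 and 204 for LMAN1, and siNC libraries averaged 239 for MCFD2 and 188 for LMAN1, so the lower level of the pair was that of MCFD2 in siHOTAIR and that of LMAN1 in siNC.

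**Figure D2:**
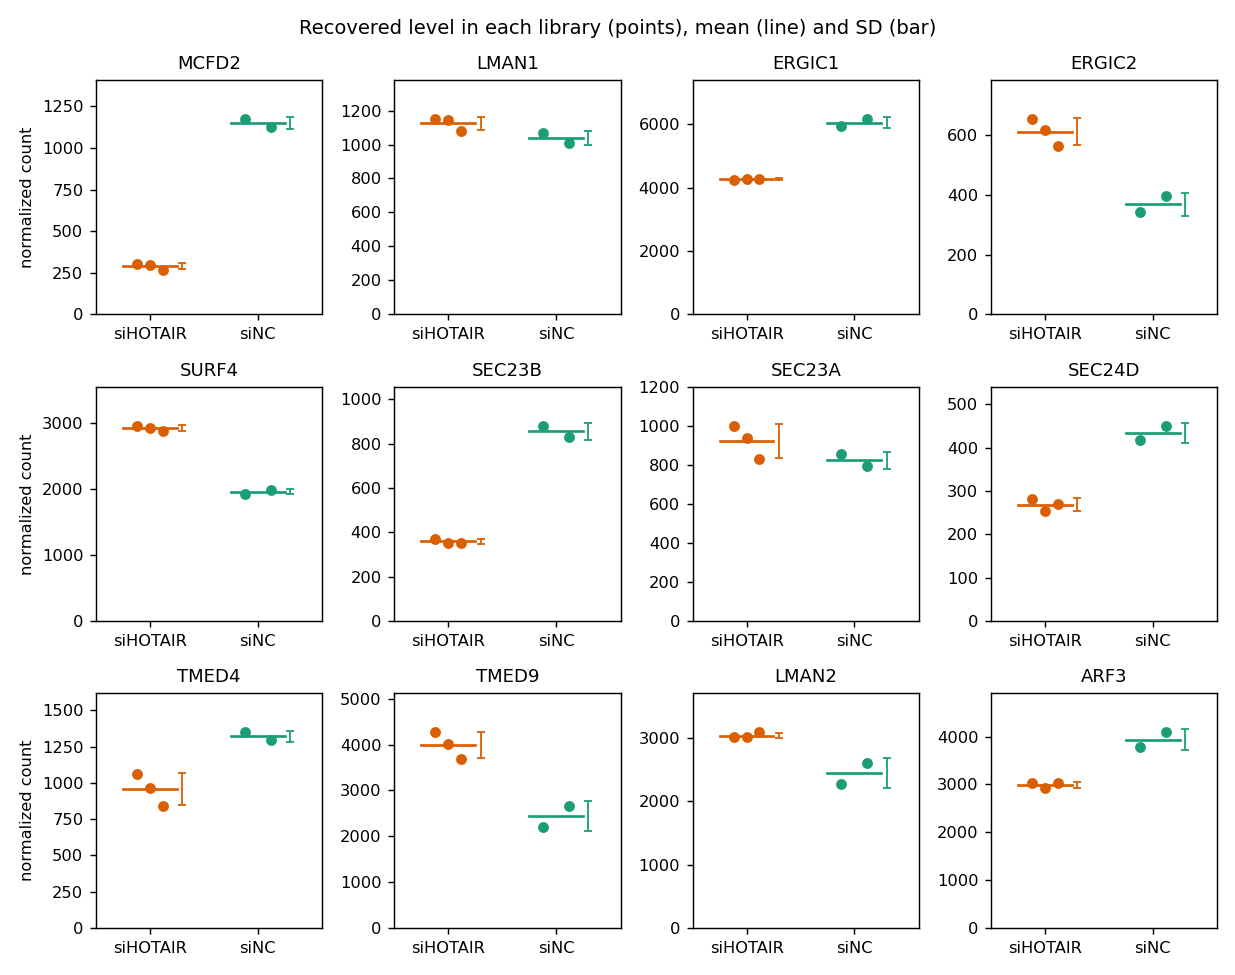
Normalized count in each recovered library (points) with the mean (line) and SD (bar, n = 3 siHOTAIR and 2 siNC) for 12 transport genes, each axis starting at 0. MCFD2 sits between 268 and 302 in siHOTAIR libraries and at 1125 and 1175 in siNC libraries, while LMAN1 stays between 1007 and 1151 in all 5.

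The other receptors moved in both directions. ERGIC2, a membrane protein that cycles between the ER and the ER-Golgi intermediate compartment, had 655, 619 and 563 normalized counts in siHOTAIR libraries, against 342 and 397 in siNC libraries. It rose, with a log2 fold change of 0.73 (SE 0.108 and adjusted p = 1.69e-10) in the authors' deposited table, the highest among the transport genes. ERGIC1, its relative and the most abundant of the 55 genes by mean count, had 4232, 4282 and 4276 normalized counts in siHOTAIR libraries, against 5939 and 6172 in siNC libraries. ERGIC1 fell, with a log2 fold change of -0.50 (SE 0.0655 and adjusted p = 3.06e-13) in the authors' deposited table. A library thus held 6.46 to 7.59 reads of ERGIC1 per read of ERGIC2 after siHOTAIR, against 15.6 and 17.4 in siNC libraries. ERGIC3, the remaining member of the family, had a log2 fold change of 0.17 (adjusted p = 0.0623) in the authors' deposited table and did not pass.

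SURF4, a membrane receptor that exports soluble proteins such as lipoproteins, had 2955, 2924 and 2876 normalized counts in siHOTAIR libraries, against 1928 and 1986 in siNC libraries. It rose 1.49-fold in the authors' deposited table (log2 fold change 0.58, SE 0.0657 and adjusted p = 6.35e-17), and the groups lay far apart beside the spread within each. LMAN2, a lectin that sorts glycoproteins, had 3022, 3016 and 3092 normalized counts in siHOTAIR libraries, against 2279 and 2614 in siNC libraries. It rose, with a log2 fold change of 0.32 (SE 0.0737 and adjusted p = 0.000103) in the authors' deposited table. LMAN2L, its close relative, had a log2 fold change of -0.13 (adjusted p = 0.441) there and did not pass. Of the 8 receptors, then, 3 rose, 2 fell and 3 did not pass, where 20% of all tested features rose and 20.4% fell. None of the 8 had overlapping groups of libraries. Among all features with recovered reads, 32.0% had every siHOTAIR library below both siNC libraries, and 30.8% had every siHOTAIR library above both. The 3 receptors that did not pass lacked overlap too, so its absence adds little to the calls.

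The p24 proteins (TMED family) form complexes that sort GPI-anchored proteins and recruit coats. Of 7 tested, 3 rose, 1 fell and 3 did not pass, where 20% of all tested features rose and 20.4% fell. TMED9 had 4264, 4010 and 3689 normalized counts in siHOTAIR libraries, against 2205 and 2670 in siNC libraries, and rose with a log2 fold change of 0.71 (SE 0.0882 and adjusted p = 2.4e-14) in the authors' deposited table. TMED4, of the same subfamily, had 1064, 962 and 844 normalized counts in siHOTAIR libraries, against 1348 and 1294 in siNC libraries, and fell with a log2 fold change of -0.46 (adjusted p = 3.31e-06) in the authors' deposited table. Reads of TMED4 per read of TMED9 numbered 0.229 to 0.249 in siHOTAIR libraries, against 0.485 and 0.611 in siNC libraries.

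TMED1 had 504, 451 and 497 normalized counts in siHOTAIR libraries, against 377 and 402 in siNC libraries (log2 fold change 0.31, adjusted p = 0.00962 in the authors' deposited table). TMED7 had 680, 591 and 620 normalized counts in siHOTAIR libraries, against 521.6 and 516.5 in siNC libraries (log2 fold change 0.28, adjusted p = 0.0128 in the authors' deposited table). Both rose, but neither passed when total counts were set equal (adjusted p = 0.0849 for TMED1 and 0.121 for TMED7). TMED2 and TMED10, partners in the core p24 complexes, had log2 fold changes of 0.16 and -0.12 in the authors' deposited table, and their groups of libraries overlapped. The 3 KDEL receptors, which return ER residents that carry the KDEL signal, had log2 fold changes between -0.17 and 0.01 in the authors' deposited table, with overlapping groups, and none passed.

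The COPI coat was the role in which the most genes fell. Of its 9 tested genes 7 fell, 0 rose and 2 did not pass, and the median log2 fold change was -0.54 in the authors' deposited table. Over all tested features 20.4% fell, and at a mean of at least 200 normalized counts 1859 of 7277 features did. The 7 that fell, COPA, COPB1, COPB2, ARCN1 (the delta subunit), COPE, COPG1 and COPZ1, encode one of each of the subunits of coatomer. Every siHOTAIR library lay below both siNC libraries for each of the 7, where 32.0% of all features with recovered reads did. All 23 transport genes that changed had groups without overlap, so this adds little to the calls. As a percentage of each gene's mean in siNC libraries, the 7 genes had medians of 69.1, 66.3 and 66.6 in siHOTAIR libraries a, b and c, with a range over all 3 of 52.5 to 86.2, against 90.6 to 109 in siNC libraries.

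COPZ1, a subunit of the inner coat, had 826, 787 and 783 normalized counts in siHOTAIR libraries, against 1417 and 1566 in siNC libraries. COPZ1 fell to 53.8% of its siNC level in the authors' deposited table, a log2 fold change of -0.89 (SE 0.0804 and adjusted p = 7.16e-27). COPB2, of the outer coat, had 1172, 1050 and 937 normalized counts in siHOTAIR libraries, against 1731 and 1672 in siNC libraries (log2 fold change -0.69, SE 0.0873 and adjusted p = 9.41e-14 in the authors' deposited table). ARCN1 had 1235, 1138 and 1100 normalized counts in siHOTAIR libraries, against 1778 and 1799 in siNC libraries (log2 fold change -0.62, SE 0.0752 and adjusted p = 3.19e-15 in the authors' deposited table). These 3 were the coat genes whose change reached 1.5-fold.

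COPG1 had 1404, 1404 and 1391 normalized counts in siHOTAIR libraries, against 2039 and 2142 in siNC libraries (log2 fold change -0.58, SE 0.0686 and adjusted p = 1.36e-15 in the authors' deposited table). COPA, the largest outer subunit and the most abundant of the coat by mean count, had 2925, 2749 and 2885 normalized counts in siHOTAIR libraries, against 4182 and 4116 in siNC libraries (log2 fold change -0.54, SE 0.0662 and adjusted p = 1.08e-14 in the authors' deposited table). The smallest changes were those of COPE and COPB1. COPE had 1079, 997 and 972 normalized counts in siHOTAIR libraries, against 1185 and 1432 in siNC libraries, with a log2 fold change of -0.36 (adjusted p = 0.000343) in the authors' deposited table. COPB1 had 973, 893 and 803 normalized counts in siHOTAIR libraries, against 1132 and 1125 in siNC libraries, with a log2 fold change of -0.34 (adjusted p = 0.000562) in the authors' deposited table. Without siNC library b, limma called 6 of the 7 coat genes, and the one that missed had an adjusted p of 0.0825.

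**Figure D3:**
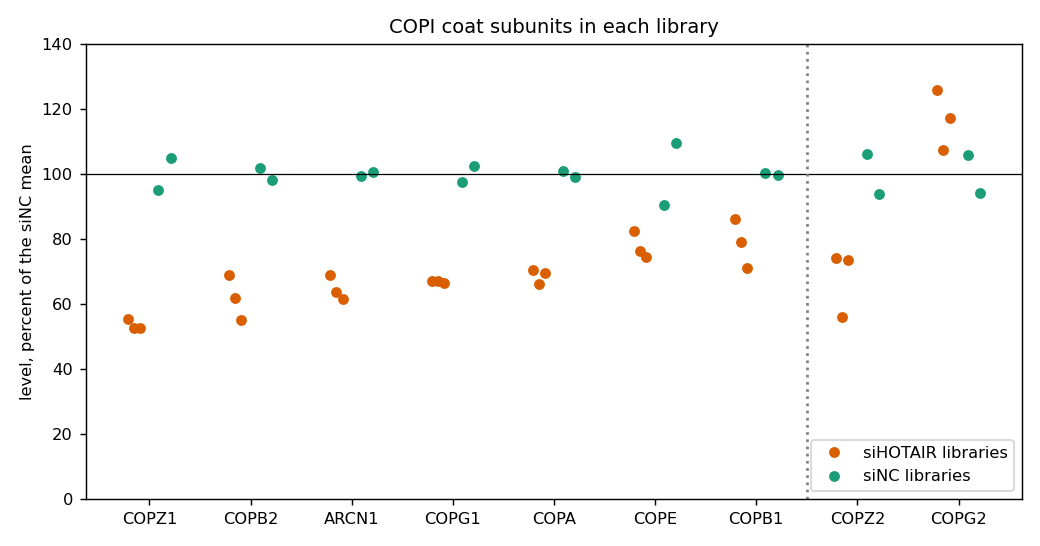
Level of each COPI coat gene in each recovered library, as a percentage of that gene's mean in siNC libraries (horizontal line at 100). For the 7 genes left of the dotted line all siHOTAIR libraries lie between 52.5 and 86.2, below both siNC libraries; COPZ2 and COPG2, right of it, did not pass the test.

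The alternative subunits of the coat did not pass. COPG2, the second gamma subunit, had 100.5, 85.6 and 93.5 normalized counts in siHOTAIR libraries, against 84.6 and 75.1 in siNC libraries, with a log2 fold change of 0.21 (adjusted p = 0.434) in the authors' deposited table. Its exons overlap those of MEST on the other strand in 5.67% of bases, and MEST rose with a log2 fold change of 0.96 (adjusted p = 1.35e-14) in the authors' deposited table. COPZ2, the second zeta subunit, had 39.8, 29.98 and 39.4 normalized counts in siHOTAIR libraries, against 56.9 and 50.4 in siNC libraries, with a log2 fold change of -0.53 (adjusted p = 0.116) in the authors' deposited table. Reads of COPG1 per read of COPG2 numbered 13.97 to 16.4 in siHOTAIR libraries, against 24.1 and 28.5 in siNC libraries. For COPZ1 per read of COPZ2 they numbered 19.9 to 26.2 in siHOTAIR libraries and 24.9 and 31.1 in siNC libraries, so those groups overlapped.

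The ER stress factors XBP1 and ATF6 bind promoters of many secretory genes, XBP1 through a site with the letters TGACGTG at its core. That word was searched on both strands in the RefSeq promoter windows of GRCh38.p14, which run from 250 bases before to 50 bases after each start site; its first letters are shared with the cAMP response element. It was found in 1.97% of all windows, in 3.26% of the tested genes with a window, and in 13 of the 47 transport genes with a window (27.7%). Of the 7 coat genes that fell, 4 carried it, COPB2 at 2 places, and these windows are shown because they are the letters that those genes have in common, with the word in capitals and each read on the strand where the word runs 5′ to 3′.
COPA (chr1:160343229-160343255, minus strand): agagggtcgcTGACGTGgaggcgtccg
COPB1 (chr11:14499842-14499868, plus strand): agtccttggcTGACGTGgaagggggtg
COPB2 (chr3:139389826-139389852, plus strand): ctaagggccgTGACGTGgtgccgctga
COPB2, nearer its start sites (chr3:139389633-139389659, plus strand): tcagactgacTGACGTGgaacttccgg
COPE (chr19:18919375-18919401, minus strand): tgcttccggcTGACGTGtctttcagga
COPG1, COPZ1 and ARCN1 fell without the word in this window. It was present for SEC23A, SEC13, SEC24A, SEC16A, MIA3, ARF1, GBF1, STX5 and KDELR3, none of which passed. SEC24D, ERGIC1, TMED4, TMED9 and USO1, all called, had no window to search. Whether the word goes with the calls was not tested. Among tested genes, 4 of 13 transport genes with the word fell and 0 rose, and of 33 without it 9 fell and 5 rose. Over all tested genes, 90 of 365 with the word fell (24.7%) and 56 rose (15.3%), against 2350 of 10824 without it that fell (21.7%) and 2238 that rose (20.7%). A match is a description of these letters, not of a bound site. XBP1 had 492, 455 and 416 normalized counts in siHOTAIR libraries, against 811 and 860 in siNC libraries, and fell with a log2 fold change of -0.87 (adjusted p = 1.37e-17) in the authors' deposited table. ATF6 did not pass, with a log2 fold change of 0.04 (adjusted p = 0.769) there. A part of XBP1 or ATF6 in the changes of these genes was not tested.

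Of 16 tested genes of the COPII coat and its exit sites, 4 fell (25%) and 0 rose. Over all tested features 20.4% fell and 20% rose, so the share of COPII genes that fell lies near the background. SEC23B, an inner coat subunit whose loss causes congenital dyserythropoietic anaemia type II, had 373, 352 and 354 normalized counts in siHOTAIR libraries, against 882 and 829 in siNC libraries. SEC23B fell to 42.3% of its siNC level in the authors' deposited table, a log2 fold change of -1.24 (SE 0.096 and adjusted p = 3.51e-36), and with MCFD2 it was one of the 2 transport genes on the authors' own list of differential genes. SEC23A, the paralogue, had 1001, 939 and 828 normalized counts in siHOTAIR libraries, against 855 and 792 in siNC libraries, and its groups overlapped (log2 fold change 0.16, adjusted p = 0.153 in the authors' deposited table). Reads of SEC23B per read of SEC23A numbered 0.372, 0.375 and 0.427 in siHOTAIR libraries, against 1.03 and 1.05 in siNC libraries. Per kilobase of exon, SEC23B averaged 94.4 normalized counts in siHOTAIR libraries and 225 in siNC libraries, while SEC23A averaged 157 in siHOTAIR libraries and 140 in siNC libraries.

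**Figure D4:**
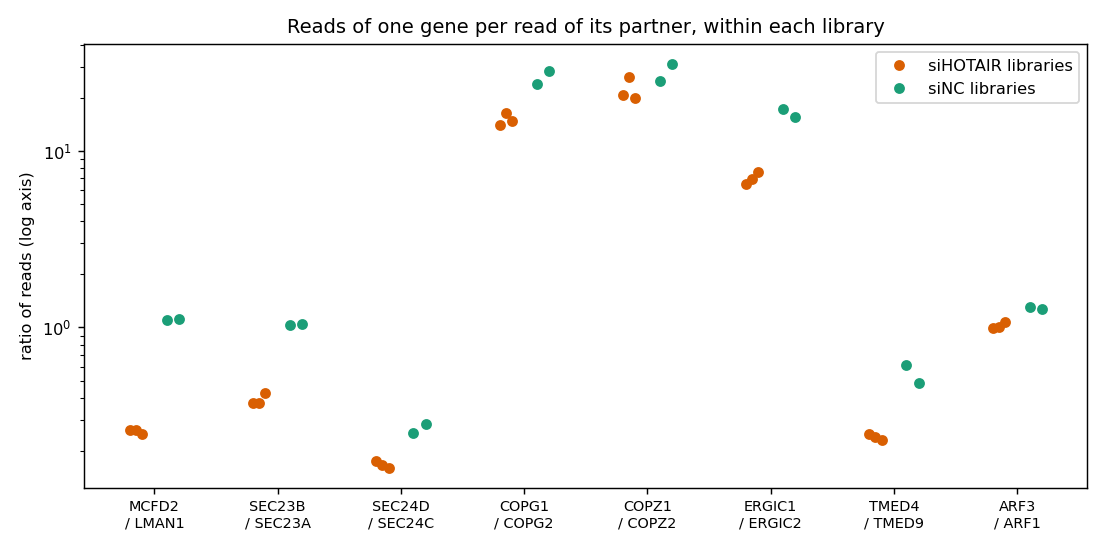
Reads of one gene per read of its partner within each recovered library, on a log axis, for 8 pairs of transport genes; the ratio does not depend on size factors. MCFD2 per LMAN1 lies at 0.248 to 0.263 in siHOTAIR libraries and at 1.10 and 1.12 in siNC libraries, and SEC23B per SEC23A at 0.372 to 0.427 in siHOTAIR libraries and at 1.03 and 1.05 in siNC libraries.

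SEC24D, one of the cargo-binding SEC24 subunits, had 282, 253 and 270 normalized counts in siHOTAIR libraries, against 417 and 450 in siNC libraries, and fell with a log2 fold change of -0.68 (SE 0.115 and adjusted p = 3.5e-08) in the authors' deposited table. The other tested SEC24 genes did not pass: SEC24A had a log2 fold change of -0.24 (adjusted p = 0.0646) and SEC24C of -0.02 (adjusted p = 0.841) in the authors' deposited table. SEC23IP, which binds SEC23 at exit sites, fell with a log2 fold change of -0.41 (adjusted p = 0.000486) in the authors' deposited table. PREB, the exchange factor that loads SAR1, had 548, 551 and 542 normalized counts in siHOTAIR libraries, against 601 and 750 in siNC libraries, and fell with a log2 fold change of -0.30 (adjusted p = 0.0127) in the authors' deposited table. Its siNC libraries stood further apart than its siHOTAIR libraries.

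SAR1A and SAR1B, the GTPases themselves, had log2 fold changes of 0.03 and 0.04 in the authors' deposited table, with overlapping groups. For the outer coat, SEC13 had a log2 fold change of -0.13, SEC31B of 0.24 and SEC31A of -0.49 in the authors' deposited table. SEC31A had 65.0, 73.9 and 59.7 normalized counts in siHOTAIR libraries, against 89.6 and 99.7 in siNC libraries, and missed the threshold in the authors' deposited table (adjusted p = 0.0503). Whether its row holds all reads of SEC31A, or that of SEC24B all of its reads, could not be checked, so these levels are those of the rows. The scaffolds SEC16A and TFG and the large-cargo receptors MIA2 and MIA3 had log2 fold changes between -0.27 and 0.13 in the authors' deposited table, and none passed.

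Among the ARF GTPases and their regulators, 1 of 6 fell and 0 rose, where 20.4% of all tested features fell and 20% rose. ARF3 had 3035, 2919 and 3025 normalized counts in siHOTAIR libraries, against 3783 and 4087 in siNC libraries, with a log2 fold change of -0.39 (adjusted p = 8.92e-08) in the authors' deposited table. ARF1, ARF4 and ARF5, the exchange factor GBF1 and the GTPase-activating protein ARFGAP1 had log2 fold changes between -0.11 and 0.12 in the authors' deposited table. Of the 6 genes of SNAREs and the tether, 2 fell and 0 rose, beside the same shares of all features. USO1 (p115), which tethers vesicles to the Golgi, had 360, 313 and 329 normalized counts in siHOTAIR libraries, against 510 and 429 in siNC libraries, with a log2 fold change of -0.49 (adjusted p = 0.000124) in the authors' deposited table. SEC22B had 521, 464 and 434 normalized counts in siHOTAIR libraries, against 578 and 597 in siNC libraries, with a log2 fold change of -0.31 (adjusted p = 0.00932) in the authors' deposited table. STX5, BET1, GOSR1 and GOSR2, the other SNAREs listed, had log2 fold changes between -0.20 and 0.14 in the authors' deposited table and did not pass.

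**Figure D5:**
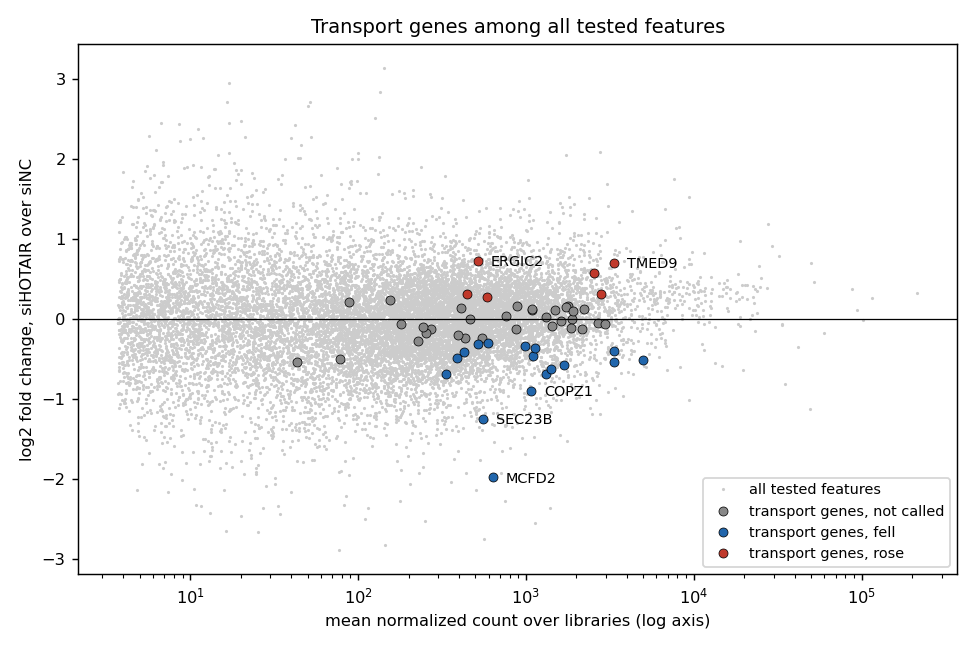
Mean normalized count over libraries (log axis) against log2 fold change, siHOTAIR over siNC, for all 14597 tested features (grey) and the 55 transport genes (coloured by call), from the authors' deposited table. MCFD2 and SEC23B lie low among features of like abundance, and most transport genes lie within the cloud.

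Other genes of the pathway were counted in lists of neighbours, where 41 of 81 tested genes (50.6%) changed, 13 that rose and 28 that fell. Over all tested features 40.4% changed, with 20% that rose and 20.4% that fell, and at a mean of at least 200 the share was 55.6%, so the counts of the neighbours, with lists of 3 to 21 tested genes, are given as a description. In the conserved oligomeric Golgi (COG) complex, which tethers vesicles within the Golgi, 5 of 8 genes fell and 0 rose. COG6 had 97.0, 98.5 and 63.1 normalized counts in siHOTAIR libraries, against 239 and 215 in siNC libraries, with a log2 fold change of -1.36 (adjusted p = 4.69e-13) in the authors' deposited table. COG2 and COG5 fell with log2 fold changes of -0.63 and -0.44 in the authors' deposited table. Of 15 SNARE partners and fusion factors 8 fell and 1 rose. VTI1A and STX18, both SNAREs, fell with log2 fold changes of -0.97 and -0.67 in the authors' deposited table, and YKT6, another SNARE, rose with 0.36.

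TRAPP subunits and Golgi tethers were split, with 4 of 18 that rose and 3 that fell. TRAPPC1 and TRAPPC2 rose, with log2 fold changes of 0.39 and 0.54 in the authors' deposited table, and TRAPPC13 fell with -0.999. In the Dsl1 tether, at which COPI vesicles dock on the ER, 1 of 3 genes rose: ZW10 had 233, 239 and 214 normalized counts in siHOTAIR libraries, against 120 and 128 in siNC libraries, with a log2 fold change of 0.88 (adjusted p = 8.62e-08) in the authors' deposited table. Its partners RINT1 and NBAS had log2 fold changes of -0.14 and -0.19 there and did not pass. Among 21 other early secretory factors 1 rose, the GTPase ARFRP1 with a log2 fold change of 0.52, and 8 fell, among them the GTPase RAB1B with -0.31 in the authors' deposited table.

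The cargo of these receptors showed no single direction. For LMAN1, 3 cargoes were tested. F8 (coagulation factor VIII) had 13.0, 7.49 and 11.3 normalized counts in siHOTAIR libraries, against 40.2 and 42.6 in siNC libraries. F8 fell with a log2 fold change of -1.73 (adjusted p = 2.27e-05) in the authors' deposited table. The cathepsins CTSC and CTSZ rose, with log2 fold changes of 0.33 and 1.15 in the authors' deposited table. Of 4 tested cargoes of SURF4 and MIA3, the collagens COL4A1 and COL7A1 rose with 0.91 and 0.69 and COL12A1 fell with -0.96 in the authors' deposited table. Beside XBP1, the proteases that activate ATF6 moved oppositely: MBTPS1 rose with a log2 fold change of 0.51 and MBTPS2 fell with -1.06 in the authors' deposited table. Of the 9 genes of ER stress control 2 rose, 2 fell and 5 did not pass.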

How the data were processed

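The labels describe stranded libraries from total RNA, and the submitters' processing notes name HTSeq 0.6.1, DESeq2, DESeq and build hg19. The aligner, annotation, strand setting and handling of reads that fit several genes were not given in those notes. Per the file headers, the authors' mean is a signal: counts over size factors, averaged. The authors deposited log2 fold changes, shrunken for low features, and a score column that holds each fold change over its standard error. Each raw p-value and adjusted p-value was deposited by the authors, and the adjustment was checked on the table. Gene IDs were matched to RefSeq symbols (GRCh38.p14, 19108 matched).

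Each library adds a fixed step per read to a mean. Whole reads per library were solved from the means alone up to a mean of 60 (9149 of 9149 features with 1 solution, 2 after a random offset). Up to a mean of 5000 the solution also had to return the deposited fold change within 1e-06 on the natural log scale under a refitted negative binomial model (10084 of 10084 with 1 solution). The 228 features above that mean were not recovered. Steps were put to siHOTAIR or siNC by the sign of the deposited fold change of features with a single read. On simulated reads for the siHOTAIR and siNC libraries, the search returned the right reads for 250 of 250 features and a solution for 1 of 250 after an offset. The features simulated had means above 60 that did not reach that of ERGIC1 (4980).

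Recovered reads were tested with limma 3.58.1 (R 4.3.3, mean trend, log2 of normalized count plus 1). In simulated reads for 14369 features it called 56 of 100 features changed by 0.5 (log2), 93 of 100 changed by 1 (log2), and 4 of 14169 unchanged features. All simulated features had the same assumed spread between libraries. Far fewer of them changed than the 46.7% that limma called in the recovered reads, so these rates need not hold there. The planned count test on a table of counts was not run, since the tables hold 0 columns of single libraries. Ratios, sums and exon lengths (GENCODE 29) were computed here.

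The members, lists and tests were chosen with earlier results of these data known. All members could be named. Full values were given for MCFD2, LMAN1 and up to 8 called members per direction at a mean of at least 20, and neighbours by the 3 smallest p per list. One neighbour named by that rule is left out here. Library values of other members, partners on the other strand and the fold change of ATF6 were added after their values were seen. Alternatives tried were the threshold, a fold limit, filters, scalings, the authors' own list, limma and leaving out each library.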

Additional observations from a re-analysis of the deposited data

How the results depend on the processing

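MCFD2 kept its direction and its call in every alternative tried, with log2 fold changes of -2.07 to -1.93. Over the 14 other transport genes given with full values, LMAN1 among them, and 14 alternatives, 171 of 196 values kept their direction and their side of the threshold, 25 kept direction and lost the call, and 0 reversed. The stricter threshold, the fold limit, the filters, the authors' own list and the rule on overlap reuse the deposited fold changes. Under those, no direction could reverse, that of MCFD2 included. The scalings only subtract 0.0069 or 0.0955 from every deposited fold change. Both shifts are smaller than the smallest fold change of these genes, 0.12 for LMAN1, so the scalings could reverse no direction either. With a change of at least 1.5-fold also asked for, 8 transport genes (2 rose, 6 fell) and 17 neighbours were called. The authors' own list held 2 transport genes and 4 neighbours. Equal total counts, which shift all fold changes by 0.0955, moved the median of the transport genes to -0.21 and their calls to 30. Leaving out each recovered library in turn, with limma, gave 22 to 28 transport genes and 36 to 42 neighbours called, a median of -0.15 to -0.08 and an MCFD2 log2 fold change of -2.02 to -1.93. Where a siNC library was left out, the lone siNC library was assumed to vary like the others. TMED7, TMED1 and LMAN2 each lost the call in at least 1 of these fits. The other full table held the same values, so it gave no alternative. Calls that also needed groups without overlap, an alternative chosen after seeing the data, numbered 23 and 39. No paired analysis was possible because the replicate numbers of the recovered libraries are unknown. COPZ2 and SEC31A, at means of 43.3 and 77.6 normalized counts, were called by limma (adjusted p = 0.0354 and 0.0124) and not by the authors' test.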

Other observations

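The siHOTAIR library c had the lowest of the 3 siHOTAIR levels in 32 of 55 transport genes (58.2%) and in 2916 of 7049 recovered features with a mean of at least 200 (41.4%). TMED4, COPB1, COPB2 and SEC22B are examples, with siHOTAIR library c below siHOTAIR library a by more than the gap between the siNC libraries. The 3′ UTR words AGAGAGA and AAGAGAG, picked earlier from these same fold changes, were found in the longest annotated 3′ UTR (GENCODE 29) of 14 of 55 transport genes (25.5%) and of 3206 of 12313 tested genes (26.0%). COPZ1, ERGIC1, ARF3, SEC23IP and SEC22B were the 5 of 17 genes that fell with a word, ERGIC2 was the 1 of 6 that rose, and MCFD2 and SEC23B held neither word.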
